A study of Mus musculus with 24 samples.

Results

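The genes described here are 10 members of the mammalian circadian clock and its direct outputs, taken by symbol from a table of 55450 genes measured in cerebellum, liver and testes. They are the activators Arntl and Npas2, the repressors Per1, Per2, Per3 and Cry2, the nuclear receptors Nr1d1 and Nr1d2, and the output factors Dbp and Tef. All 10 were in the table and all 10 passed the filter on low values (at least 1 CPM in at least 4 of the 8 libraries of a tissue, where CPM is the expected count scaled to a library total of 1000000) in each of the 3 tissues.

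Total RNA was sequenced from wild-type (WT) mice and from mice carrying a Thumpd1 knockout (KO), made in C57BL/6N eggs with CRISPR-Cas9 cuts in exons 1 and 4. The study's mice were on a C57/BL6 background. Thumpd1 binds tRNA and works with the enzyme Nat10, which places N4-acetylcytidine on tRNAs for serine and leucine. Each tissue had 4 WT libraries, numbered 1 to 4, and 4 KO libraries, numbered 5 to 8, with no treatment in either group. The study kept its mice at 6 to 12 weeks of age, of either sex, on 12 h of light and 12 h of dark, with littermates of matched age as controls unless stated otherwise. Several founder lines were made, and the line used for these libraries and the hour of day at which tissue was taken are not given in the sources used here. The levels of the genes below are known to swing over the day, and the part of the hour in the differences below was not tested.

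Library totals ran from 16353797 to 37889615 expected counts. Thumpd1 itself had 0 to 2 counts in KO cerebellum against 406 to 539 in WT, 0 to 4 against 248 to 325 in liver, and 23 to 41 against 740 to 846 in testes, with every KO library below every WT library. Summed markers of hepatocytes reached at least 52179 CPM in every liver library, those of granule neurons at least 5194 CPM in every cerebellum library, and those of elongating spermatids at least 8494 CPM in every testes library.

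The libraries of a group were not equally far apart. Libraries with neighbouring numbers (1 and 2, 3 and 4, 5 and 6, 7 and 8) differed over the 10 members by a mean of 0.102 to 0.185 log2 units in liver, against 0.283 to 0.72 for other couples of the same group. In cerebellum these values were 0.0483 to 0.109 against 0.134 to 0.248, and in testes, where they overlapped, 0.0534 to 0.177 against 0.099 to 0.305. Choroid plexus markers in cerebellum gave the same grouping, with summed levels of 1735 and 1760 CPM in WT 1 and 2, 102 and 104 in WT 3 and 4, 119 and 128 in KO 5 and 6, and 628 and 645 in KO 7 and 8. Neighbouring libraries still differed by more than counting error: the median over genes of the squared difference divided by its counting variance was 0.690 to 2.12, where counting error alone gives 0.455. Whether neighbours come from separate animals or from separate preparations of one animal was not tested. The labels do not say whether neighbours share an animal, so calls are given with 4 libraries a group and again with neighbours summed to 2 a group, and p-values over 4 libraries may measure in part a technical spread.

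The mammalian clock is a transcriptional loop. Arntl (BMAL1) pairs with Clock or its paralog Npas2 and switches on genes that carry E-boxes, among them the Per and Cry genes, Nr1d1, Nr1d2 and Dbp. PER and CRY proteins then block the activators, and the REV-ERB receptors made from Nr1d1 and Nr1d2 repress Arntl and Npas2, so that these groups peak at different times of day. Dbp and Tef are PAR bZIP factors that carry the rhythm to other genes through D-boxes, and in liver many metabolic genes follow them.

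By GENCODE M21 on mm10, the activators are Arntl at chr7:113207465-113314126 (plus strand) and Npas2 at chr1:39193731-39363236 (plus strand). The repressors are Per1 at chr11:69095217-69109960 (plus strand), Per2 at chr1:91415982-91459324 (minus strand), Per3 at chr4:151003652-151044665 (minus strand) and Cry2 at chr2:92403646-92434043 (minus strand). The nuclear receptors are Nr1d1 at chr11:98767932-98775333 (minus strand) and Nr1d2 at chr14:18204054-18239127 (minus strand), and the output factors are Dbp at chr7:45705088-45710203 (plus strand) and Tef at chr15:81802421-81826863 (plus strand). The counts cover reads over the exons of each gene.

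Windows of the 250 bases upstream of annotated starts were read for 9 of the 10 members, without Per2 (12 windows, RefSeq, GRCm38.p6). Each was searched on both strands for the E-box CACGTG, the E-prime box CACGTT, the D-boxes TTATGTAA, TTATGCAA and TTACGTAA, the cAMP response element TGACGTCA and the REV-ERB/ROR site TAGGTCA. In total 5 members held 8 matches. Over all 32851 windows, 6.02% held the E-box, 3.85% the E-prime box, 1.61% any of the D-box spellings, 1.55% the cAMP response element and 2.23% the REV-ERB/ROR site. The printed windows belong to the 5 members with a match, with the matched letters in capitals. Of these, 4 were called lower in KO liver and Per1 was not called there. The windows of Arntl, Npas2, Nr1d2 and Dbp held no match. A match describes letters and not a bound site, and nothing follows from the windows with no match. The Per3 window (chr4:151044666-151044915, minus strand) holds TTATGTAA from 205 and from 158 bases before the start. The Nr1d1 window (chr11:98775378-98775627, minus strand) and the Cry2 window (chr2:92434070-92434319, minus strand) hold CACGTT as its reverse complement, from 28 and from 166 bases before the start. The window of the downstream of 2 Tef starts (chr15:81811164-81811413, plus strand) holds CACGTG from 138 bases before it, and that of the upstream start, which is not printed, holds it from 127 bases. All 250 bases of that upstream window lie in annotated exons. The window of the upstream of 2 Per1 starts (chr11:69098699-69098948, plus strand) holds CACGTG from 166 and TTATGCAA from 24 bases before it.

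Per3: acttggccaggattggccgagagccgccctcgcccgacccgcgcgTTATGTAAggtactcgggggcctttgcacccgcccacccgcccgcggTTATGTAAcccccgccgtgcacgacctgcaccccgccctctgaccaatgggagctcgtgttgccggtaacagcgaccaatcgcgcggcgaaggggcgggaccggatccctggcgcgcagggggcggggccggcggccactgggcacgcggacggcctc
Nr1d1: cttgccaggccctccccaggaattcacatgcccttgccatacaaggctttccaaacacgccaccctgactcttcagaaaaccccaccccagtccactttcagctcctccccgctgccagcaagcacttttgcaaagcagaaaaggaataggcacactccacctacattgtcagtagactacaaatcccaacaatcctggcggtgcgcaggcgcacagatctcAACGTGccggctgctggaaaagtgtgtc
Cry2: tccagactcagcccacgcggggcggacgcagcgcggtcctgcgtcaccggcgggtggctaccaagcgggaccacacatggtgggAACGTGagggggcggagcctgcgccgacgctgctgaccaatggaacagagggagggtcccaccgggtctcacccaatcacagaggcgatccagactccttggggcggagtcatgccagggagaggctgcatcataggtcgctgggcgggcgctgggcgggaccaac
Tef: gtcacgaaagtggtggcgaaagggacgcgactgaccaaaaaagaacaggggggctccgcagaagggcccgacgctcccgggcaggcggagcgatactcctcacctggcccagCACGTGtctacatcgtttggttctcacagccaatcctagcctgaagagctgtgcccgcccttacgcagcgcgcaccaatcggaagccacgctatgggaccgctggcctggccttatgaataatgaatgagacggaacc
Per1: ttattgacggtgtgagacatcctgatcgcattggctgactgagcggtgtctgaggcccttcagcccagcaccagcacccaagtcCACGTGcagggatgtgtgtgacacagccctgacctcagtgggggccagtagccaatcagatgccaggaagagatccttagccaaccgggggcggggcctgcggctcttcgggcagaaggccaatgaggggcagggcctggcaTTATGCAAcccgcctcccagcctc

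In liver, 6 of the 10 genes were lower in KO than in WT and 0 were higher (limma adjusted p under 0.05). Dbp fell most, to 17.0% of its WT mean, and Per2, Per3 and Nr1d1 fell to 51.3%, 52.6% and 51.9%. Tef and Cry2 fell to 71.9% and 74.6%. Over all 12816 genes tested in liver, 3.12% were called lower and 2.79% higher. The KO libraries lay wholly below the WT libraries for 7 genes, the 6 called and Nr1d2, while WT and KO did not overlap, in either direction, for 12.7% of all genes tested. The median log2 change of the 10 genes was -0.52, against -0.0031 over all genes. The 10 genes were chosen with earlier results of these data known. The 7 other core clock genes tested in liver, described below, had a median of 0.24.

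Dbp, the D-box factor of the PAR bZIP family, was at 8.37, 6.48, 10.5 and 9.52 CPM in the 4 WT livers and at 1.80, 1.98, 1.16 and 0.958 CPM in the 4 KO livers. The groups did not overlap, and the lowest WT library was above 3 times the highest KO library. The log2 change was -2.77 ± 0.31 (SE; adjusted p = 0.001, limma), the 7th lowest log2 change of the 12816 genes tested. The KO values rest on 29 to 44 counts per library and the WT values on 200 to 336, so counting error adds to their spread.

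Dbp shares 539 exonic bases, 18.01% of its exonic length, with Sphk2 on the other strand. Sphk2, a sphingosine kinase, had means of 114 ± 14.3 CPM in the WT livers and 87.2 ± 5.56 CPM in the KO livers (SD, n = 4), and its log2 change of -0.34 was not called (adjusted p = 0.0941, limma). The strand setting of the counting is not given in the sources used here, and without it reads of the shared bases cannot be assigned to either gene.

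Tef, the second PAR bZIP factor, moved less. It was at 54.9, 50.2, 55.1 and 49.1 CPM in WT liver and at 35.4, 40.5, 36.9 and 37.7 CPM in KO, with no overlap. Its log2 change was -0.44 ± 0.07 (SE; adjusted p = 0.00611, limma).

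Nr1d1, which encodes REV-ERB alpha, was at 104, 104, 105 and 84.6 CPM in WT liver and at 61.7, 60.9, 41.5 and 41.9 CPM in KO. All KO libraries were below all WT libraries, and KO 7 and 8 were below KO 5 and 6. The log2 change was -0.95 ± 0.14 (SE; adjusted p = 0.00415, limma). Thra, which shares 263 exonic bases with Nr1d1 on the other strand, had a liver log2 change of 0.03 (adjusted p = 0.865, limma).

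Nr1d2, which encodes REV-ERB beta, divided the KO libraries. It was at 31.5, 29.6, 36.4 and 34.2 CPM in WT liver, at 28.9 and 29.2 CPM in KO 5 and 6, and at 16.05 and 18.6 CPM in KO 7 and 8. KO 5 and 6 were just below the lowest WT library and KO 7 and 8 well below it. Its log2 change of -0.60 ± 0.20 (SE) was not called (adjusted p = 0.103, limma).

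Of the repressors, Per2 was at 11.2, 10.2, 8.52 and 7.41 CPM in WT liver and at 4.71, 5.46, 4.25 and 4.73 CPM in KO. The KO libraries were close to each other and all below WT, with a log2 change of -1.01 ± 0.13 (SE; adjusted p = 0.00231, limma). Per3 was at 4.25, 5.601, 4.92 and 4.22 CPM in WT and at 3.11, 1.87, 2.59 and 2.41 CPM in KO, again without overlap, with a log2 change of -0.98 ± 0.17 (adjusted p = 0.00816, limma). Cry2, whose protein represses the activators with PER, was at 33.0, 29.9, 31.3 and 26.9 CPM in WT and at 21.6, 23.5, 22.5 and 22.6 CPM in KO, with a log2 change of -0.41 ± 0.07 (adjusted p = 0.00641, limma).

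Per1 did not follow the other Per genes. It was at 7.44, 6.18, 2.92 and 3.11 CPM in WT liver and at 2.86, 3.20, 16.2 and 15.5 CPM in KO. KO 7 and 8 were the highest of the 8 libraries and 5.25-fold above KO 5 and 6, and WT 1 and 2 were 2.26-fold above WT 3 and 4. The log2 change of 0.85 ± 0.57 (SE) was not called (adjusted p = 0.409, limma), and it turned to -0.59 when KO 7 and 8 were left out.

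The activators showed the same division among KO libraries. Arntl was at 25.5, 23.6, 22.3 and 20.9 CPM in WT liver, at 23.7 and 22.3 CPM in KO 5 and 6, and at 34.4 and 36.2 CPM in KO 7 and 8. Npas2 was at 10.6, 10.04, 9.89 and 8.37 CPM in WT, at 10.5 and 9.31 CPM in KO 5 and 6, and at 18.9 and 17.8 CPM in KO 7 and 8. For both genes KO 5 and 6 lay within or at the WT range and KO 7 and 8 above it. The log2 changes were 0.36 ± 0.13 for Arntl and 0.55 ± 0.20 for Npas2 (SE), and neither was called (adjusted p = 0.128 and 0.123, limma).

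**Figure D1:**
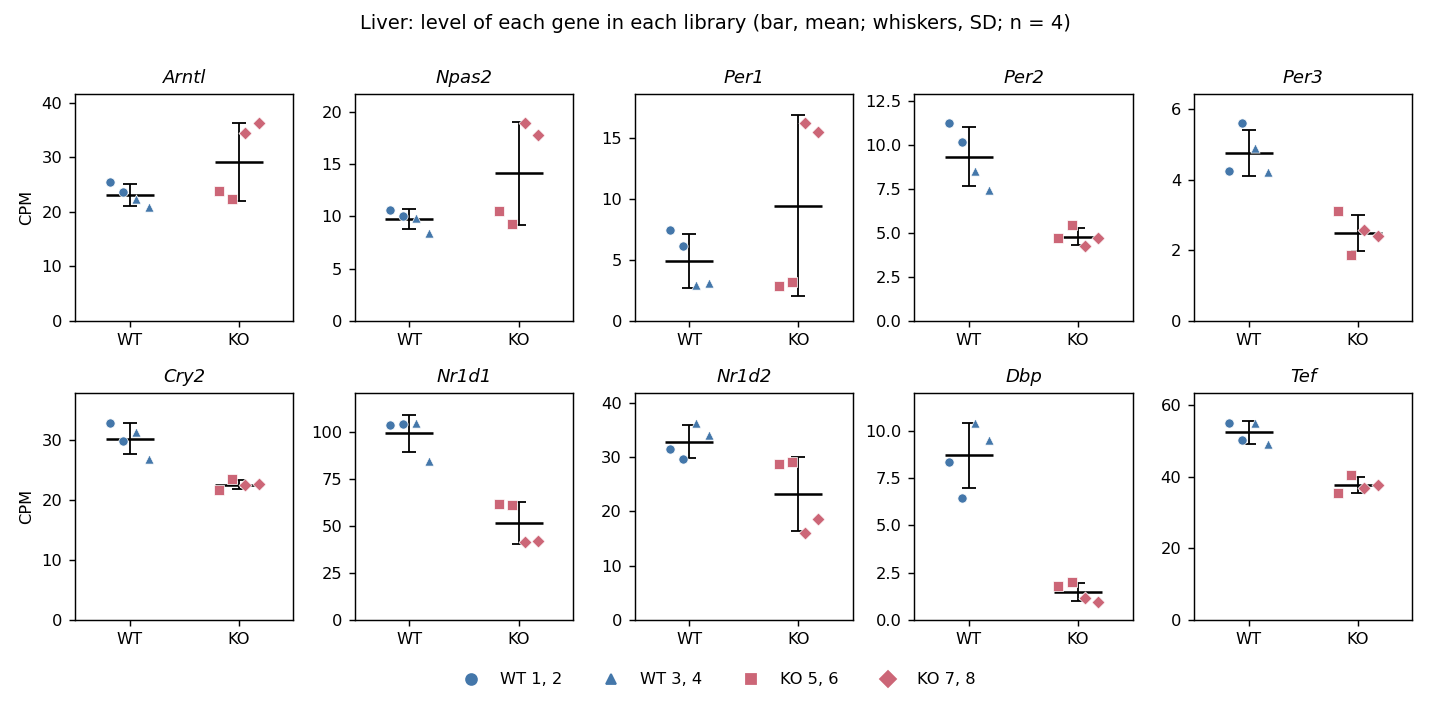
CPM (vertical axis, from 0) of each of the 10 genes in the 4 WT and 4 KO livers, with a marker shape for each couple of neighbouring libraries, the mean as a bar and the SD as whiskers (n = 4). Dbp, Per2, Per3, Cry2, Nr1d1, Nr1d2 and Tef have no KO library within the WT range, while Per1, Arntl and Npas2 are high only in KO 7 and 8 among the KO libraries.

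How far the liver calls rest on the number of libraries was examined next. With neighbouring libraries summed to 2 per group, 0 of the 10 genes were called in liver, where 0.078% of all genes were called (10 of 12816). The fitted changes stayed close, at -2.75 for Dbp (adjusted p = 0.0845, limma), -1.01 for Per2 (0.167), -0.97 for Per3 (0.193) and -0.94 for Nr1d1 (0.208), and 6 of the 10 had an unadjusted p under 0.05, against 9.39% of all genes. With neighbours kept as separate libraries tied by a random term, 5 genes were called (Dbp, Nr1d1, Per2, Tef and Cry2), against 2.14% of all genes. Without KO 7 and 8 the same 6 genes were called as with all libraries, and without KO 5 and 6 all 10 were (11.3% and 8.23% of all genes). Leaving out WT 1 and 2 left 3 calls, Dbp, Per2 and Tef (1.25% of all genes). Sample quality weights added Nr1d2 lower and Npas2 and Arntl higher (13.3% of all genes), DESeq2 added Npas2 higher (11% of all genes), and the fit over 24 libraries added Nr1d2 lower (6.96%).

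In cerebellum, 4 of the 10 genes were lower in KO and 0 were higher. Nr1d1, Nr1d2, Dbp and Per3 fell to 81.8%, 81.6%, 84.2% and 87.3% of their WT means. Over all 16225 genes tested in cerebellum, 2.51% were called lower and 3.93% higher. The KO libraries lay wholly below the WT libraries for 3 genes, against 13.8% of all genes tested whose groups did not overlap in either direction. The median log2 change of the 10 genes was -0.24, against -0.0059 over all genes and 0.0098 over the 11 other core clock genes.

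Nr1d2 was at 197, 188, 182 and 192 CPM in WT cerebellum and at 157, 169, 141 and 152 CPM in KO, with a log2 change of -0.29 ± 0.05 (SE; adjusted p = 0.00578, limma). Nr1d1 was at 115, 116, 114 and 109 CPM in WT and at 102, 98.02, 88.5 and 83.6 CPM in KO, with a log2 change of -0.30 ± 0.06 (adjusted p = 0.0096, limma). Both REV-ERB genes had all KO libraries below WT, and KO 7 and 8 were the lowest of the KO libraries for both.

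Per3 was at 86.2, 85.7, 79.6 and 75.4 CPM in WT cerebellum and at 73.1, 74.2, 70.5 and 67.5 CPM in KO, with a log2 change of -0.20 ± 0.05 (SE; adjusted p = 0.0331, limma). The gap between its groups was small, since WT 4 was only just above KO 6. Dbp was at 56.8, 60.3, 53.0 and 49.8 CPM in WT and at 50.2, 48.0, 46.2 and 40.8 CPM in KO, with a log2 change of -0.27 ± 0.07 (adjusted p = 0.0392, limma). Its groups overlapped, because KO 5 was above WT 4.

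Per2 and Per1 had lower KO means that were not called, and here the WT libraries were divided. Per2 was at 49.5, 50.8, 33.1 and 31.3 CPM in WT cerebellum and at 37.6, 36.4, 29.7 and 26.7 CPM in KO (log2 change -0.36 ± 0.16 (SE), adjusted p = 0.183, limma). Per1 was at 87.2, 88.3, 67.8 and 66.8 CPM in WT and at 72.3, 67.0, 63.6 and 55.2 CPM in KO (log2 change -0.29 ± 0.10, adjusted p = 0.106, limma). For both genes WT 1 and 2 were above every other library, by 1.56-fold and 1.30-fold over WT 3 and 4.

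Arntl was divided in the other direction, at 49.9, 49.1, 61.5 and 62.7 CPM in WT cerebellum and at 63.8, 62.5, 67.5 and 66.7 CPM in KO. Its log2 change of 0.23 ± 0.08 (SE) was not called (adjusted p = 0.0875, limma). The 2 WT libraries with high Per1 and Per2 and low Arntl were also those with summed choroid plexus markers of 1735 and 1760 CPM, and the part of this tissue in the differences was not tested. Npas2 (5.44 CPM in WT and 6.01 in KO), Cry2 (115 and 113) and Tef (261 and 250) had overlapping groups and log2 changes between -0.05 and 0.12 (adjusted p = 0.54 or above, limma).

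With neighbouring libraries summed, 0 of the 10 genes were called in cerebellum (0.296% of all genes were), with adjusted p = 0.089 for Nr1d2 and 0.123 for Nr1d1 (limma) and an unadjusted p under 0.05 for 6 of the 10, against 16.3% of all genes. With neighbours tied by a random term the 2 REV-ERB genes were called, against 3.69% of all genes. In the fit over 24 libraries with TMM factors 0 were called, where 0.857% of all genes were (adjusted p = 0.0843 for Nr1d2 and 0.145 for Nr1d1, limma, with an unadjusted p under 0.05 for 5 of the 10 and 10.4% of all genes). With single libraries left out in turn, Nr1d1 and Nr1d2 were called in 8 of 8 fits, Dbp in 3 and Per3 in 2. These fits called 2.59% to 14.4% of all genes, the most without KO 6, where Dbp and Per3 were called. Without WT 1 and 2, or without KO 7 and 8, 0 of the 10 were called, by limma, where 2.51% and 2.3% of all genes were. In each of these fits 4 had an unadjusted p under 0.05, against 21.5% and 15.6% of all genes. Without KO 5 and 6, where 10.6% of all genes were called, there were 5 calls, Nr1d1, Nr1d2, Per1, Per3 and Dbp, each lower. Without WT 3 and 4, where 2.11% of all genes were called, there were 7 calls, Arntl higher and Nr1d1, Nr1d2, Dbp, Per1, Per2 and Per3 lower.

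Among markers of cerebellar cells, 3 of 7 granule neuron genes (Zic1, Gabra6 and Neurod1) were called lower in KO, against 2.51% of all genes, while Zic2, Fat2, Cbln3 and Cbln1 had log2 changes of -0.06 to 0.04 and were not called. The list summed to between 5666 and 5883 CPM in WT libraries and between 5194 and 5619 CPM in KO libraries, with none of the 7 at 0. With neighbours summed 1 of the 7 was called (Gabra6), and with the random term the same 3 were, against 1.2% of all genes called lower. Of 7 Purkinje cell markers 1 was called, Pcp2, higher by 0.24 (adjusted p = 0.0355, limma), and the others ran from -0.06 to 0.13. Of 8 midbrain markers 1 was tested, Th, and it was called higher, by 0.46 (adjusted p = 0.0323, limma). Over all genes 3.93% were called higher, and neither Pcp2 nor Th was called with neighbours summed or with the random term. The part of cell makeup in the clock gene differences was not tested. In bulk tissue fewer cells of a type and less RNA per cell cannot be told apart.

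In testes, 0 of the 10 genes were called by limma with quantile normalization. Of the 10, 3 had an unadjusted p under 0.05, as did 37% of all genes. Npas2 and Nr1d2 were called higher by edgeR, DESeq2 and limma with TMM factors, which called 11.6%, 13% and 11.2% of all genes higher. With sample quality weights Nr1d2 was called higher and Per2 lower, where 31.6% of all genes were called. Testes had the most calls over all genes, since with quantile normalization 10.7% of 19329 genes were called lower and 9.74% higher. The groups did not overlap for 2 of the 10 genes, both with KO above WT, against 28.6% of all genes tested. The median log2 change of the 10 genes was 0.09, against 9.72e-05 over all genes and 0.028 over the 10 other core clock genes tested.

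Npas2 was at 2.37, 2.67, 2.91 and 2.55 CPM in WT testes and at 3.39, 3.12, 4.29 and 3.81 CPM in KO, a log2 change of 0.37 ± 0.13 (SE; adjusted p = 0.0676, limma). Nr1d2 was at 27.1, 26.2, 27.2 and 24.6 CPM in WT and at 32.1, 31.0, 34.7 and 29.1 CPM in KO, a log2 change of 0.19 ± 0.07 (adjusted p = 0.065, limma). Each of these genes had its lowest KO library above its highest WT library.

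Dbp in testes was at 12.3, 13.4, 12.7 and 11.9 CPM in WT, at 11.9 and 12.2 CPM in KO 5 and 6, and at 19.3 and 15.2 CPM in KO 7 and 8. Per3 showed the same division, at 17.5 to 20.3 CPM over the WT libraries, 18.3 and 18.1 CPM in KO 5 and 6, and 25.7 and 25.3 CPM in KO 7 and 8. KO 7 and 8 were above every WT library for Dbp, Per3, Cry2, Nr1d1 and Tef, the same 2 numbers that stood apart in liver, although nothing in the labels ties a number to one animal across tissues. Without KO 5 and 6, 5 genes were called higher (Tef, Npas2, Per3, Dbp and Cry2), in a fit that called 42.9% of all genes. Without KO 7 and 8 the calls were Nr1d2 higher and Per1 lower, where 19.2% of all genes were called.

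Cell type markers in testes also moved with genotype. Of 9 Sertoli cell markers 7 were called higher in KO, against 9.74% of all genes, and the list summed to 941 to 1114 CPM over the WT libraries, 1202 and 1238 CPM in KO 5 and 6, and 1749 and 1312 CPM in KO 7 and 8. Of 7 elongating spermatid markers 4 were called lower, against 10.7% of all genes, with sums of 11614 to 12177 CPM over the WT libraries, 10812 and 10585 CPM in KO 5 and 6, and 8494 and 8976 CPM in KO 7 and 8. KO 7 stood apart in the Sertoli list, and KO 7 and 8 were lowest in the spermatid list. With neighbours summed 0 markers of either list were called. With the random term 6 Sertoli markers were called higher and 1 spermatid marker (Odf1) lower, against 4.26% and 4.91% of all genes. No marker of either list was at 0 in a group, and the part of this shift in the clock gene values was not tested. With neighbours summed 0 of the 10 genes were called (0.00517% of all genes, which is 1 gene), and with the random term 0 were called (9.17% of all genes).

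**Figure D2:**
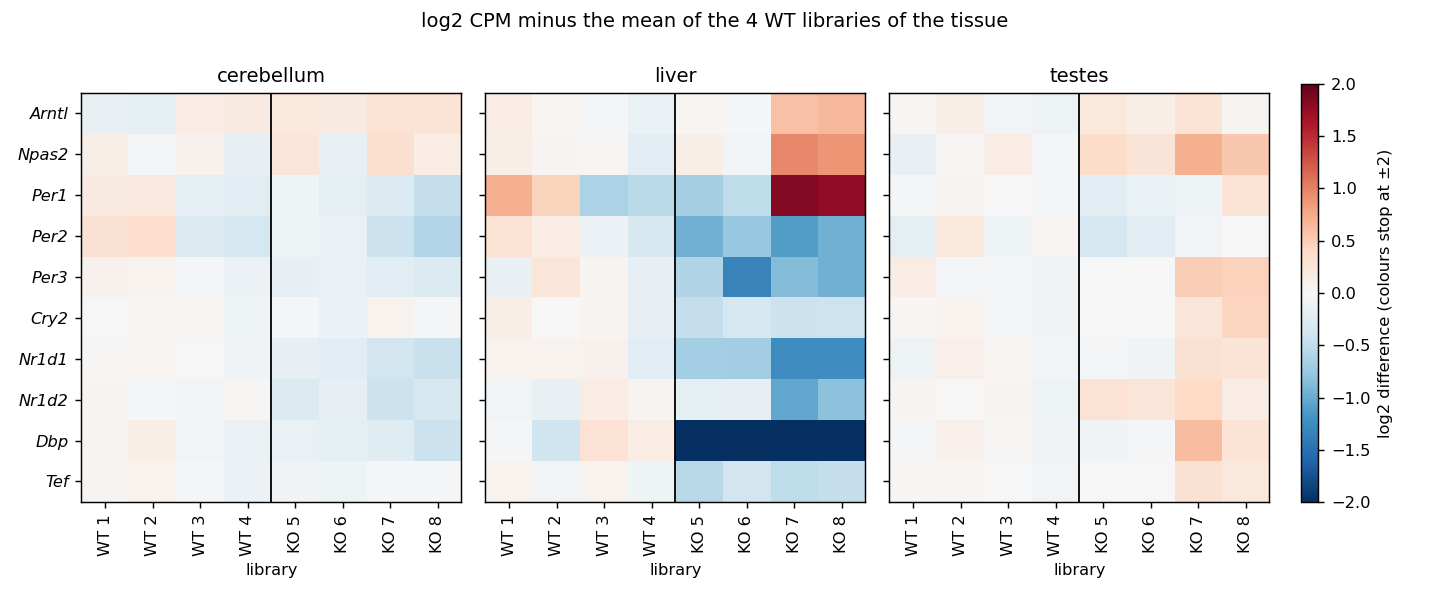
Colour gives log2 CPM minus the mean of the 4 WT libraries of the same tissue for each of the 10 genes (rows) in each library (columns), with a line between WT and KO. Dbp, Per2, Per3, Cry2, Nr1d1 and Tef are blue in all 4 KO livers, Arntl, Npas2 and Per1 are red in KO livers 7 and 8, and neighbouring libraries resemble each other.

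Whether the KO effect differed by tissue was tested in 1 fit over the 24 libraries. The KO effect in liver was lower than that in cerebellum for 3 of the 10 genes, Dbp, Nr1d1 and Tef, where 2.49% of 22629 genes differed. The differences in log2 change were -2.40 ± 0.31 for Dbp, -0.72 ± 0.14 for Nr1d1 and -0.43 ± 0.09 for Tef (SE; adjusted p = 0.0003, 0.006 and 0.0129, limma). The Tef call was lost with quantile normalization and without number 3 (adjusted p = 0.0724, limma). For Per3, Per2 and Cry2 the difference between these tissues was not called (adjusted p = 0.0982, 0.247 and 0.0633, limma).

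The KO effect in testes was above that in liver for 6 genes (7.09% of all genes differed in either direction). The differences were 2.82 ± 0.32 for Dbp, 1.14 ± 0.24 for Per3, 1.10 ± 0.16 for Nr1d1, 0.85 ± 0.17 for Nr1d2, 0.58 ± 0.10 for Tef and 0.56 ± 0.12 for Cry2 (SE; largest adjusted p = 0.00876, limma). Between testes and cerebellum 1 gene differed, Nr1d2, by 0.53 ± 0.14 (adjusted p = 0.0318, limma), where 6.12% of all genes did. That call was lost by edgeR (adjusted p = 0.05003), with quantile normalization (0.0549), with the filter passed in every tissue (0.0713) and in 6 of 8 fits without a single number (up to 0.115). With neighbours summed, Dbp between testes and liver was the only one of these 10 differences still called, in a contrast with 70 genes called. The contrasts share the libraries of a tissue and are not independent of each other.

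**Figure D3:**
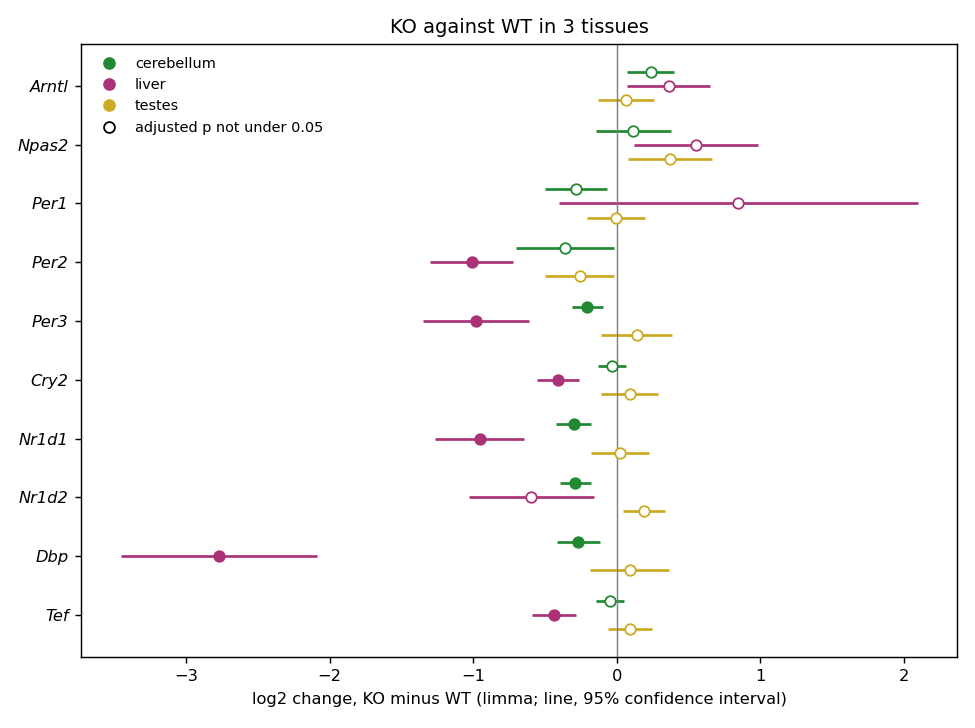
Log2 change of KO against WT (horizontal axis) with its 95% confidence interval for the 10 genes in cerebellum, liver and testes, filled where the adjusted p was under 0.05. The 6 filled liver points run from -0.41 to -2.77, the 4 filled cerebellum points from -0.20 to -0.30, and no testes point is filled.

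Levels were also compared between tissues. In CPM per kilobase of exon, whose order over tissues depends in part on the scaling (Nr1d1 was higher in liver than in cerebellum with TMM factors), the highest WT means were Nr1d1 in cerebellum (36.9 ± 1.09), Per1 in testes (36.2 ± 1.01), Nr1d2 in cerebellum (35.1 ± 1.20) and Tef in cerebellum (33.2 ± 1.98; SD, n = 4). The lowest were Per3 in liver (0.494 ± 0.0680) and Npas2 in testes (0.547 ± 0.0474). Neighbours in the order of these 4 high levels overlapped in their libraries (Nr1d1 35.4 to 37.8, Per1 35.3 to 37.6, Nr1d2 33.7 to 36.5, Tef 30.7 to 34.95), as did the ranges of the lowest pair.

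Per1 and Npas2 stood apart from the other genes in WT tissue. Per1 was highest in testes, at 204 ± 5.67 CPM against 77.5 ± 11.8 in cerebellum and 4.92 ± 2.25 in liver. Npas2 was highest in liver, at 9.73 ± 0.953 CPM against 5.44 ± 0.484 in cerebellum and 2.62 ± 0.227 in testes (SD, n = 4). Both orders held by CPM, with TMM factors and with quantile normalization over the 24 libraries.

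The other 8 genes had their highest CPM in cerebellum, but part of their order depended on the scaling between tissues. Nr1d1 was at 114 CPM in cerebellum and 99.3 CPM in liver, whereas with TMM factors it was higher in liver, by 1.00 ± 0.09 on the log2 scale (SE), and by 0.53 with quantile normalization. Per2, Cry2, Dbp and Tef had higher mean CPM in testes than in liver, whereas with TMM factors they were lower in testes, by -0.71, -0.40, -0.38 and -0.77 (log2), and with quantile normalization by -1.15, -0.44, -0.79 and -0.74. Per3 was higher in testes than in liver and Arntl and Nr1d2 lower under each of these scalings.

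By CPM, neighbours in these orders did not overlap in WT, with the exception of Per2 in testes (9.60 to 12.6 CPM) and liver (7.41 to 11.2 CPM). With TMM factors, 9 of 10 genes differed between WT liver and cerebellum (85.5% of all genes did), 10 of 10 between testes and cerebellum (89.4%) and 10 of 10 between testes and liver (89.7%), shares near the background. With neighbours summed 9 of 10 differed in each contrast, without Arntl, Npas2 and Dbp in this order. Between testes and liver Dbp and Cry2 were not called with the filter passed in every tissue (-0.08 and -0.11 on the log2 scale), and Dbp was not called without number 1, 3 or 4. Npas2 was not called between testes and cerebellum without number 1. Between liver and cerebellum Arntl was the exception, at 23.1 CPM in liver and 55.8 CPM in cerebellum but with a TMM-scaled log2 difference of -0.06 ± 0.13 (SE; adjusted p = 0.656, limma). It was called lower in liver with quantile normalization (-0.26, adjusted p = 0.0279) and with the filter passed in every tissue (-0.30, adjusted p = 0.00733).

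The spread of Dbp over tissues was wider in KO. By CPM, Dbp was 6.31-fold higher in its highest than in its lowest tissue in WT and 31.4-fold in KO, the lowest being liver in both. With TMM factors WT Dbp was lowest in testes instead, 3.64-fold below cerebellum. By CPM, Nr1d2 was lowest in testes in WT, and in KO the testes (29.1 to 34.7 CPM) and liver (16.05 to 29.2 CPM) ranges overlapped at their edge.

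**Figure D4:**
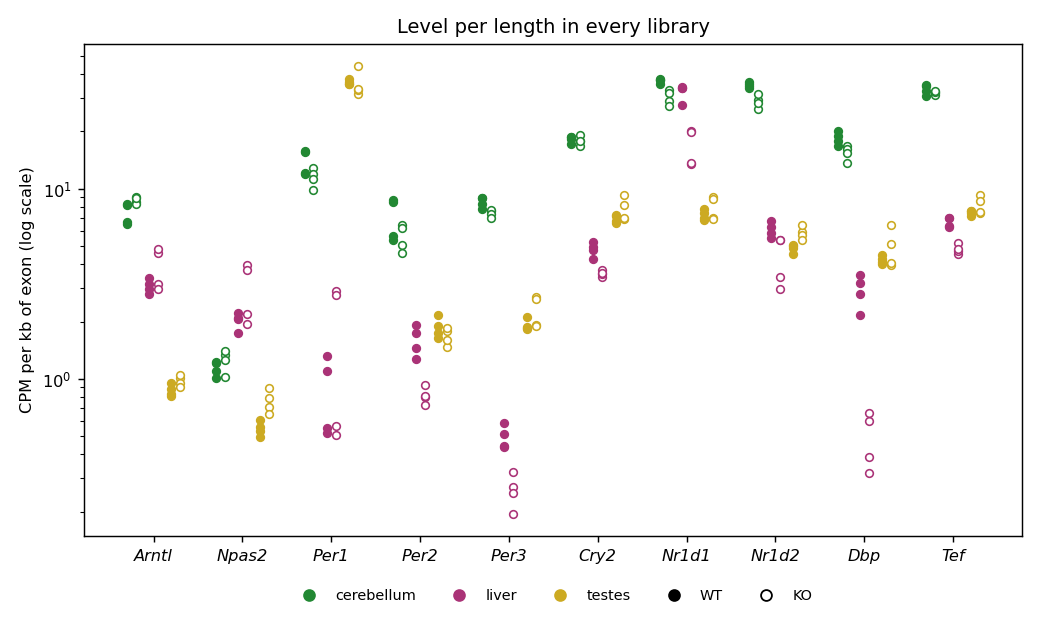
CPM per kilobase of exon (vertical axis, log scale) of the 10 genes in every library, coloured by tissue, with WT filled and KO open. On this scale Per1 is highest in testes and Npas2 in liver and the other genes in cerebellum (Nr1d1 is highest in liver with TMM factors), and Dbp in KO liver lies below all its other values.

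The other clock genes were described from lists. The 4 lists of core genes hold 11 genes beyond the 10 members, of which 7 were tested in liver, 11 in cerebellum and 10 in testes. In liver, where 3.12% of all genes were called lower, 1 of the 7 was called, Bhlhe40 (DEC1), a repressor of the activators, at 49.9, 48.3, 36.0 and 28.7 CPM in WT and 26.5, 25.0, 19.3 and 19.5 CPM in KO. The groups did not overlap, and the log2 change was -0.84 ± 0.16 (SE; adjusted p = 0.0131, limma). Bhlhe40 shares 118 exonic bases with a gene on the other strand.

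In cerebellum 0 of the 11 were called, and in testes, where 9.74% of all genes were called higher, 1 of 10, Clock, the main partner of Arntl. Clock was at 76.8, 69.6, 67.8 and 72.8 CPM in WT testes and at 94.8, 87.7, 102 and 86.8 CPM in KO. Every KO library was above every WT library, with a log2 change of 0.34 ± 0.06 (SE; adjusted p = 0.00642, limma). With neighbours summed neither gene was called (adjusted p = 0.28 for Bhlhe40 and 0.15 for Clock, limma).

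Of 10 kinases and ubiquitin ligases that act on PER and CRY proteins, 0 were called in cerebellum or liver. In testes, where 9.74% of all genes were called higher, 1 of the 9 tested was called, Prkaa2, a catalytic subunit of AMPK, with means of 3.29 ± 0.0820 CPM for WT and 4.81 ± 0.274 CPM for KO (SD, n = 4; log2 change 0.42, adjusted p = 0.0132, limma). The call was lost with neighbours summed (adjusted p = 0.179) and with the random term (0.0551, limma).

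Of 20 genes known as rhythmic outputs, mostly in liver, all 20 were tested in liver and 3 were called, 1 lower and 2 higher (3.12% and 2.79% over all genes). Por, the reductase that serves cytochrome P450 enzymes, fell by 0.57 on the log2 scale, from means of 226 ± 20.5 to 149 ± 21.2 CPM (adjusted p = 0.00276, limma). Insig2, which holds back sterol synthesis, rose from 142 ± 15.9 to 182 ± 6.74 CPM (0.39, adjusted p = 0.00679), and Tsc22d3, a glucocorticoid-induced gene, rose from 43.8 ± 3.91 to 54.1 ± 3.70 CPM (0.35, adjusted p = 0.00725; SD, n = 4). The median log2 change of the 20 was -0.06, and with neighbours summed none of the 3 was called (adjusted p = 0.244, 0.396 and 0.403, limma).

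In cerebellum 2 of 17 tested outputs were called, Tfrc, the transferrin receptor, which fell by 0.25 on the log2 scale (adjusted p = 0.0233, limma), and Klf10, a zinc finger factor, which rose by 0.31 (adjusted p = 0.0281). Over all genes in cerebellum 2.51% were called lower and 3.93% higher. With neighbours summed neither was called (adjusted p = 0.089 and 0.134, limma), and Klf10 was not called with the random term (0.0534). In testes 1 of 15 was called, where 10.7% of all genes were called lower. It was Alas1, the first enzyme of heme synthesis, which fell by 0.23 (adjusted p = 0.0425, limma) and shares 465 exonic bases with a gene on the other strand. Its call was lost with neighbours summed (adjusted p = 0.218) and with the random term (0.117, limma).

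The remaining lists cover signals that reach the clock. Of glucocorticoid-induced genes, 2 of 8 tested rose in cerebellum (Fkbp5 and Zbtb16), 4 of 9 rose in testes (Zbtb16, Sgk1, Fkbp5 and Lcn2), and in liver 1 of 9 rose (Tsc22d3) and 1 fell (Tat). Of temperature-responsive genes, 1 of 8 fell in liver (Hsph1) and 0 of 8 were called in either of the other tissues. Of immediate early genes, 4 of 9 rose in cerebellum (Egr3, Fosb, Egr1 and Arc), 0 of 4 were called in liver, and in testes 1 of 8 rose (Ier2) and 1 fell (Egr3). Over all genes 3.93% were called higher in cerebellum, 9.74% in testes and 2.79% in liver, and 10.7% were called lower in testes and 3.12% in liver. With neighbours summed, Fosb and Egr3 in cerebellum were the 2 genes of these lists still called, and 0 were called in liver or testes. With the random term Zbtb16 in cerebellum, Hsph1 in liver and Lcn2, Ier2 and Egr3 in testes were not called, while the others were.

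These signals also divided along neighbouring numbers. Early genes summed to 206 and 190 CPM in KO cerebellum 5 and 6 and to 118 and 115 CPM in KO 7 and 8, against 102 to 115 CPM in WT. Hepatocyte markers in liver summed to 62403 and 64066 CPM in KO 5 and 6 and to 84082 and 91267 CPM in KO 7 and 8, against 52179 to 68359 CPM in WT, with 1 of 8 called higher and 1 lower. The liver fall of Dbp was seen in both couples, at 1.89 CPM in KO 5 and 6 and 1.06 CPM in KO 7 and 8. The part of these signals in the clock gene differences was not tested.

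The genes most like Dbp across the 24 libraries were sought by Pearson's r of log2 CPM after each tissue's mean was taken off, among 11079 genes with a mean of at least 1 CPM in every tissue. The 5 highest were Atp11a (0.942), Nr1d1 (0.929), Srgap3 (0.912), Acot11 (0.908) and Tef (0.907). The 5 lowest were Dgkh (-0.906), Chka (-0.901), Ksr2 (-0.897), Clpx (-0.896) and Sntg1 (-0.893). Among the other members, Per3, Cry2, Per2 and Nr1d2 ranked 29, 39, 46 and 56 from the top (0.823 to 0.773), while Per1 (-0.45), Npas2 (-0.51) and Arntl (-0.58) were on the negative side. The 24 points share libraries, and the 8 livers among them hold the genotype difference of Dbp.

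With the mean of each genotype and tissue taken off instead, Nr1d1 (0.713) and Nr1d2 (0.710) were the highest of the members and Arntl (-0.60) and Per1 (-0.60) the lowest. The likeness of Tef was then 0.56 and that of Per3 0.19. These values describe how libraries of a group vary, in which neighbouring libraries are alike. Atp11a, Srgap3, Acot11 and Chka each share exonic bases with a gene on the other strand.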

How the data were processed

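RNA was measured in 24 libraries, 4 per genotype and tissue. The values deposited were RSEM expected counts for each gene. The authors aligned paired-end reads of ribosome-depleted, stranded total RNA with STAR and quantified genes with RSEM, using mm10 and GENCODE M21. Tool versions and the strand setting are not given in the sources used here. The members and gene lists were chosen with earlier results of these data known, and lists were written from general knowledge. CPM scales the expected count to a library total of 1000000. Levels per length divide CPM by the length of merged exons.

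Each tissue was fitted on its 8 libraries with quantile normalization and limma-voom (limma 3.58.1, R 4.3.3) after a filter of at least 1 CPM in at least 4 libraries. Benjamini-Hochberg adjusted p-values cover all genes tested, with a threshold of 0.05. Tissues were compared in 1 limma-voom fit over 24 libraries with TMM factors (edgeR 4.0.16). DESeq2 1.42.0 and edgeR's quasi-likelihood test used rounded counts. The fits were tested on simulated data. Summing neighbouring libraries, the random term for them and leaving out couples of libraries were chosen after seeing the data. Likeness used log2 of CPM plus 0.5. Named genes are all members, every called gene of the core clock lists, up to 6 called genes per tissue of the kinase and output lists, genes overlapping a member, and the 5 highest and 5 lowest in likeness to Dbp, leaving out predicted genes. Called genes of the signal lists and of the granule, Purkinje and midbrain lists are also named, chosen after their values were seen.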

Additional observations from a re-analysis of the deposited data

Results flagged for a closer look

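In 60 groups of 4 libraries, 2 had a library whose gap to its nearest neighbour exceeded Dixon's critical value, as a share of the group's range, where chance gives about 1 in 20. Nr1d1 in WT liver replicate 4 was low (84.6 CPM, gap 0.932), and Per3 in WT testes replicate 1 was high (20.3 CPM, gap 0.841).

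The KO effect differed between tissues for 10 combinations of a gene and 2 tissues, by limma over 24 libraries. Liver minus cerebellum gave -2.40 for Dbp, -0.72 for Nr1d1 and -0.43 for Tef in log2 change. Testes minus cerebellum gave 0.53 for Nr1d2. Testes minus liver gave 2.82 for Dbp, 1.14 for Per3, 1.10 for Nr1d1, 0.85 for Nr1d2, 0.58 for Tef and 0.56 for Cry2. What underlies these differences was not tested.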

How the results depend on the processing

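For KO against WT, 564 of 660 values under alternatives kept their direction and side of the threshold, 41 lost the threshold, 32 gained it and 23 turned direction. For differences of the KO effect these counts were 355 of 390, 20, 9 and 6, and for WT levels 379 of 390, 8, 2 and 1. Time of collection, animals per library and counting strand were not given, and Dbp in KO liver rests on 29 to 44 counts. The causes of the changes below were not tested.

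Of the 10 genes, 4 were called in cerebellum (6.44% of all genes), 6 in liver (5.91%) and 0 in testes (20.5%). Shares of all genes called are also in parentheses below. In cerebellum 2 were called with no filter (2.05%) and 0 in the fit over 24 libraries (0.857%). With neighbouring libraries summed 0 were called (0.296%), and 2 with the random term (3.69%). There were 0 without KO 7 and 8 (2.3%) or without WT 1 and 2 (2.51%), and 7 without WT 3 and 4 (2.11%). There were 5 without KO 5 and 6 (10.6%), and 2 to 5 without single libraries (2.59% to 14.4%). In liver 9 were called with sample quality weights (13.3%), 7 by DESeq2 (11%) and 7 in the fit over 24 libraries (6.96%). There were 0 with neighbours summed (0.078%), 10 without KO 5 and 6 (8.23%), and 3 without WT 1 and 2 (1.25%). In testes 2 genes, Nr1d2 and Npas2, were called higher by edgeR (23%), by DESeq2 (26.1%) and by limma with TMM (22.9%). With sample quality weights the 2 calls were Nr1d2 higher and Per2 lower (31.6%). There were 2 without KO 7 and 8 (19.2%), 5 without KO 5 and 6 (42.9%), and 0 to 1 without single libraries (8.91% to 25.6%).

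For the KO effect, calls over all genes are in parentheses. Liver minus cerebellum had 3 calls (564 of 22629), 5 by edgeR (616) and 2 with quantile normalization (439). It had 5 with the filter passed in every tissue (852 of 11112), 0 with neighbours summed (40) and 2 to 3 without single numbers (255 to 446). Testes minus cerebellum had 1 (1384), and 0 by edgeR (1177), with quantile normalization (2631) or with neighbours summed (0). It also had 0 with the filter passed in every tissue (1616 of 11112), and 0 to 2 without single numbers (556 to 1557). Testes minus liver had 6 (1604), and 1 with neighbours summed (70).

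These log2 changes turned direction. In cerebellum they were -0.0053 for Npas2 without KO 7 and 8, 0.0085 for Cry2 without KO 5 and 6, and 0.033 for Tef without WT 1 and 2, and in liver -0.59 for Per1 without KO 7 and 8. In testes without KO 7 and 8 they were -0.085 for Per3, -0.061 for Cry2, -0.13 for Nr1d1, -0.14 for Dbp and -0.028 for Tef. With sample quality weights they were -0.024 for Per3, -0.0052 for Cry2, -0.10 for Nr1d1 and -0.085 for Dbp. Testes Per1 was 0.13 without KO 5 and 6 and 0.011 without WT 1 and 2. Without single libraries, testes Per1 ran from -0.11 to 0.0498, Nr1d1 from -0.028 to 0.0757 and Dbp from -0.0372 to 0.18. The KO effect of Arntl, liver minus cerebellum, ran from -0.014 to 0.19, that of Per2, testes minus cerebellum, from -0.024 to 0.29, and that of Npas2, testes minus liver, from -0.21 to 0.026 (0.15 with quantile normalization). WT Arntl, liver minus cerebellum, ran from -0.15 to 0.0226 without single numbers, and was -0.26 with quantile normalization and -0.30 with the filter passed in every tissue, both called.

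With the replicate number as a replicate block across tissues, the KO effect differed in 4, 1 and 7 genes against 3, 1 and 6. Over all 22629 genes it differed in 628, 1812 and 2198, against 564, 1384 and 1604. WT levels differed in 9, 10 and 10 of the members, unchanged in number, and in 19373, 20297 and 20389 of all genes. Only 10 of 24 same-number correlations exceeded 0.1 (-0.205 to 0.205) and 7 of 24 libraries were closest to their own number, so over all tissues the numbers were not taken as pairs. The 4 KO correlations between liver and testes alone were each over 0.1 (0.112 to 0.159), which no label explains. There liver KO 5 and 6 were both closest to testes KO 5, and liver KO 7 and 8 both to testes KO 8.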
